A study of Homo sapiens with 16 samples.

Results

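Vimentin, its linker plectin, the 3 lamin genes and 3 genes that tie the lamina to the nuclear membrane were followed in 2 human acute myeloid leukaemia lines treated with NEL. The 8 genes were VIM, PLEC, LMNA, LMNB1, LMNB2, LBR, SUN1 and SUN2, and all 8 were found among the 34618 genes of the count table. They were chosen by name, with results of these same comparisons in view. Their fold changes and adjusted p-values are therefore given to place them among all genes, not as independent support for the choice. Polyadenylated RNA was sequenced in 16 libraries, 4 for each of 4 groups: U937 with NEL, U937 with the vehicle DMSO, KG1A with NEL and KG1A with DMSO. U937 is a promonocytic line and KG1A an immature CD34-positive line; all groups were grown in RPMI with dialyzed serum, and NEL was given at 10 µM. The labels do not spell NEL out and give no treatment time. NEL was taken to be nelarabine, a nucleoside analogue of the purine class, from outside knowledge of the study and not from the labels. Whether the 4 libraries of a group stem from separate cultures is not in the labels, so p-values measure library-to-library spread alone, and that spread may be technical.

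Vimentin is an intermediate filament protein of the cytoplasm, found in mesenchymal cells and in most white blood cells, and plectin ties such filaments to other parts of the cytoskeleton and to the nucleus. The lamins line the inside of the nuclear envelope. LMNB1 and LMNB2 encode the B-type lamins, made in nearly all cells, while LMNA encodes lamins A and C, whose level differs widely between tissues. LBR, the lamin B receptor, sits in the inner nuclear membrane, binds B-type lamins and heterochromatin protein 1, and is also a sterol reductase. SUN1 and SUN2 cross the inner membrane and hold the nesprins of the outer membrane, forming the bridge between lamina and cytoskeleton. Maturing myeloid cells reshape their nucleus, and the make-up of the lamina changes as they do.

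Library totals ran from 11157449 to 11777684 counts in U937 and from 10641567 to 11049006 in KG1A. The line labels were checked against marker genes. CD34 averaged 0.812 CPM (counts scaled to library size with TMM factors over all 16 libraries) in U937 with NEL and 0.325 CPM in U937 with DMSO, against 999 CPM in KG1A with NEL and 909.9 CPM in KG1A with DMSO. CTSG, a granule protease of promonocytes, averaged 916 and 1230 CPM in U937 with NEL and DMSO and 2.84 and 1.21 CPM in KG1A with NEL and DMSO, while MPO was under 1 CPM in every group. The other promonocytic markers were higher with NEL than with DMSO in U937: LYZ averaged 94.9 and 70.0 CPM, CD33 104 and 87.8 CPM, CSF1R 18.7 and 2.64 CPM, and ITGAM 51.9 and 8.63 CPM. In KG1A with NEL and DMSO, ITGAM averaged 11.5 and 2.28 CPM and the other 3 were under 2 CPM. Summed over the list, the 4 immature markers reached 1.16 to 1.93 CPM in U937 libraries with NEL and 0.431 to 1.32 CPM with DMSO, and 974 to 1128 CPM in KG1A libraries with NEL and 917 to 1028 CPM with DMSO. The 6 promonocytic markers summed to 1149 to 1233 CPM in U937 with NEL and 1381 to 1414 CPM with DMSO, and to 15.4 to 17.8 CPM in KG1A with NEL and 3.04 to 4.95 CPM with DMSO; in U937 the sum is mostly CTSG, the only marker of the 6 with a lower mean with NEL. CSF1R and ITGAM moved in the same direction as VIM in U937, and their part in the results was not tested. Of the 3 T lymphoid markers in the table, KG1A held CD3D at 111 CPM with NEL and 121 CPM with DMSO, and CD3E at 37.9 and 28.1 CPM. CD2 went the other way, at 0.024 and 0.071 CPM in KG1A and 0.353 and 0.567 CPM in U937 with NEL and DMSO. In all 4 groups, libraries numbered 2 and 4 differed from libraries numbered 1 and 3 in several of the 8 genes, so effects are also given within the odd-numbered and the even-numbered libraries alone; the labels name no batch.

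The bases just before the start sites of 4 of the genes are shown as examples: VIM was higher with NEL in U937, LMNA was almost absent from KG1A, and LBR and SUN2 fell with NEL in both lines. LMNB1 also fell in both lines and LMNB2 fell in U937, but their sequences are not shown. The sequences come from RefSeq on build GRCh38.p14, whereas the positions given further on are those of the deposited table on GRCh37. Each is the 250 bases before the upstream-most listed start, 5′ to 3′ on the gene's strand, at chr10:17227991-17228240 on the plus strand for VIM, chr1:156082323-156082572 on the plus strand for LMNA, chr1:225428822-225429071 on the minus strand for LBR and chr22:38755999-38756248 on the minus strand for SUN2. Capitals mark matches, on either strand, to the GC box GGGCGG, to the pentamer CCAAT, to the AP-1 pattern TGANTCA, or to the E2F patterns TTTCCCGC, TTTGGCGC, TTTCGCGC and TTTGCCGC.
VIM: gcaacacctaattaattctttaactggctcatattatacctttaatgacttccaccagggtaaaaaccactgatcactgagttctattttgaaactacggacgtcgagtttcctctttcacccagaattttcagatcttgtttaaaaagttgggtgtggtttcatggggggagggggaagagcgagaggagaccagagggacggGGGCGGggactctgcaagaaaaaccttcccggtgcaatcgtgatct
LMNA: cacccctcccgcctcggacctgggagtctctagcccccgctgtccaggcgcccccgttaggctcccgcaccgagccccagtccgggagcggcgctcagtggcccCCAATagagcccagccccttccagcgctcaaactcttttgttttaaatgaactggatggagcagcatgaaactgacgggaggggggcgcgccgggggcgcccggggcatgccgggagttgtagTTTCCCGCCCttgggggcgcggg
LBR: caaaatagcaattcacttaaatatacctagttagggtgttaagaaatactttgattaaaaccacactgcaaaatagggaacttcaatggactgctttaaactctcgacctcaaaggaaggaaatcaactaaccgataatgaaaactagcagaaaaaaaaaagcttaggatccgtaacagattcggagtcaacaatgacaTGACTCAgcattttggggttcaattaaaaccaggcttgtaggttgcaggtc
SUN2: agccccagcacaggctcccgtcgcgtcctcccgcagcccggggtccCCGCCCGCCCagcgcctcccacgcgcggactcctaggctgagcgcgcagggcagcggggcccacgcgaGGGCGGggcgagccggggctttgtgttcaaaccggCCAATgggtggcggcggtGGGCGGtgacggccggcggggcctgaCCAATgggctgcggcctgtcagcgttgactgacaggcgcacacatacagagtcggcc
These stretches differed in composition, with 46.0% G and C for VIM, 68.8% for LMNA, 36.8% for LBR and 74.8% for SUN2. VIM held 1 GGGCGG. LMNA held 1 CCAAT and a joined run in which TTTCCCGC overlaps a GGGCGG on the other strand. LBR held neither GGGCGG nor CCAAT but 1 TGANTCA. SUN2 held 2 CCAAT and several GGGCGG, of which 2 overlap each other on the other strand. Over 35116 promoter windows of 300 bases (250 before to 50 after a start), 45.0% held GGGCGG, 34.6% CCAAT, 7.71% TGANTCA and 1.63% TTTCCCGC. The other patterns searched were rarer, at 0.652% for TTTGGCGC, 0.515% for TTTCGCGC and 0.607% for TTTGCCGC. A match describes the letters only. Promoter sequences were matched for 6 of the 8 genes, and those of PLEC and SUN1 were not analysed here. The upstream-most LMNB1 window held no match to any pattern, while another LMNB1 start had 4 GGGCGG and 1 CCAAT. The LMNB2 window held 1 GGGCGG and no other match.

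In U937, NEL was followed by a 6.38-fold higher VIM level and by lower levels of LMNA, LMNB1, LMNB2, LBR and SUN2. Of the 8 genes tested there, 1 rose and 5 fell (edgeR quasi-likelihood test, adjusted p under 0.05); of the 14390 genes tested, 69.3% passed in either direction, 34.6% higher and 34.7% lower. In KG1A, 6 of the 8 genes had enough counts to be tested; PLEC and SUN1 rose, and LMNB1, LBR and SUN2 fell. Of the 14250 genes tested in KG1A, 47.2% passed, 23.6% higher and 23.6% lower. The NEL effect differed between the lines for 5 of the 8 genes, more positive in U937 for VIM and more negative for PLEC, LMNB2, LBR and SUN1, where 47.4% of 16117 genes tested differed, 21.1% more positive and 26.3% more negative. VIM and LMNA failed the low count filter within KG1A and entered this test through their U937 counts. The VIM call is therefore a description and adds no support of its own. Since such large shares of all genes passed, and the genes were chosen with these results known, nothing is read from these counts about the 8 genes as a set. In bulk RNA, fewer cells of a type and less RNA per cell cannot be told apart.

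**Figure D1:**
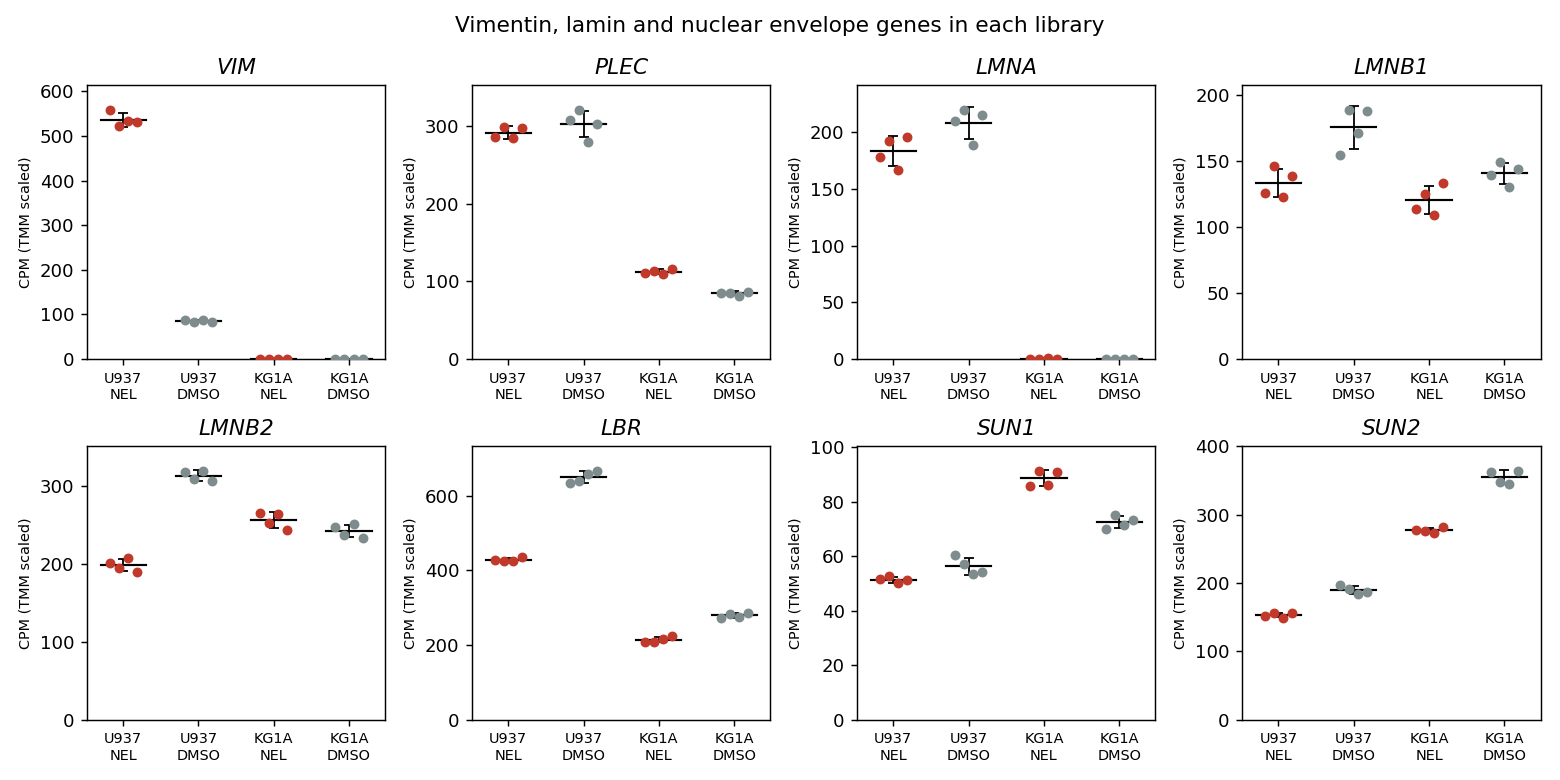
CPM of each of the 8 genes in each library (points), with the mean (line) and SD (bar) of 4 libraries, in U937 with NEL, U937 with DMSO, KG1A with NEL and KG1A with DMSO; each panel has its own linear axis from 0. VIM averaged 536 CPM in U937 with NEL against 85.1 CPM with DMSO, and VIM and LMNA lie near 0 in KG1A.

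VIM (ENSG00000026025, GRCh37 chr10:17270258-17279592, plus strand) had 6651, 6323, 6344 and 6420 counts in the U937 libraries with NEL, against 986, 945, 998 and 975 counts with DMSO. The groups did not overlap, and the libraries of a group lay close together. The log2 fold change was 2.67 ± 0.04 (SE, adjusted p = 5.11e-14), which placed VIM 144th from the top of the 14390 genes tested. The odd-numbered libraries alone gave 2.67 and the even-numbered ones 2.68. On the scale per exon length, VIM averaged 115 ± 2.83 RPKM (reads scaled to exon length and library size) with NEL and 16.9 ± 0.413 RPKM with DMSO (SD, n = 4 each). By this measure it was the most abundant of the 8 genes in U937 with NEL and next to last with DMSO, where its libraries overlapped those of PLEC. The exon lengths count all annotated exons, 4965 bases for VIM and 16985 for PLEC, so such places between genes depend on the annotation. 

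In KG1A, VIM was close to absent. It had 10, 13, 9 and 12 counts with NEL, against 12, 5, 3 and 9 counts with DMSO, and the groups overlapped. The gene was left out of the KG1A test by the filter on low counts. Summed over libraries, 44 counts with NEL and 29 with DMSO gave a ratio of 1.53 per library total, with a 95% counting interval of 0.939 to 2.54, so no difference was detectable at this depth. The NEL effect was larger in U937 than in KG1A by 2.12 ± 0.32 on the log2 scale (adjusted p = 1.13e-05), a value that rests on those few counts in KG1A. It was 2.37 among odd-numbered libraries and 1.90 among even-numbered ones. VIM entered this test through its U937 counts, so the call adds no support of its own.

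A pair of genes on the opposite strand overlap VIM in the deposited annotation. Whether counting used strand is not given in the sources used here, so reads of VIM and of these genes cannot be told apart. VIM-AS1 averaged 149 ± 8.36 CPM in U937 with NEL and 26.6 ± 1.62 CPM with DMSO, and an unnamed locus inside VIM averaged 151 ± 10.1 CPM with NEL and 24.2 ± 2.94 CPM with DMSO (SD, n = 4 each). Both were higher with NEL without overlap. Both were under 1 CPM in KG1A, where VIM itself was low. VIM made up 64.0% of the counts of the 3 overlapping genes in U937 with NEL and 62.6% with DMSO, so its share of the locus was much alike in both groups.

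Markers of other cells were read beside VIM, since vimentin is also a mesenchymal gene. The summed level of 6 mesenchymal markers ran from 7.81 to 9.34 CPM in U937 libraries with NEL and from 1.64 to 2.46 CPM with DMSO. Of these, COL1A1 averaged 6.28 and 1.31 CPM and PDGFRB 2.35 and 0.523 CPM with NEL and DMSO, while COL3A1, COL1A2 and LUM had 0 counts in every U937 library with NEL. The COL1A1 and PDGFRB levels moved with VIM in U937 but were far below it. COL3A1 went against VIM between the lines, at 2.32 and 1.31 CPM in KG1A with NEL and DMSO and 0 CPM in U937. The part of these markers in the result was not tested. In KG1A the mesenchymal sum, mostly COL3A1, ran from 2.26 to 2.79 CPM with NEL and from 1.33 to 1.51 CPM with DMSO. The 4 epithelial markers summed to at most 1.40 CPM in any library.

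PLEC (ENSG00000178209), the plectin gene, responded to NEL in KG1A. It had 110.1, 114, 110.0 and 116 CPM in KG1A with NEL, against 85.1, 85.5, 80.6 and 86.4 CPM with DMSO. All 4 libraries with NEL lay above all with DMSO, and the log2 fold change was 0.40 ± 0.04 (adjusted p = 1.55e-06; 0.40 among odd-numbered libraries and 0.41 among even-numbered ones). In U937, PLEC had 285, 299, 284 and 297 CPM with NEL, against 307, 320.4, 279.7 and 302 CPM with DMSO. These groups overlapped, and the log2 fold change of -0.04 ± 0.05 did not pass (adjusted p = 0.511); its sign turned with upper quartile factors (0.022). The NEL effect was lower in U937 than in KG1A by 0.45 ± 0.06 on the log2 scale, written as U937 minus KG1A -0.45 (adjusted p = 1.72e-06).

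LMNA (ENSG00000160789, GRCh37 chr1:156052364-156109880, plus strand), the A-type lamin gene, was plentiful in U937 and close to absent in KG1A. It had 2122, 2321, 1986 and 2370 counts in U937 with NEL, against 2382, 2534, 2145 and 2492 counts with DMSO. In KG1A it had 2, 3, 6 and 2 counts with NEL, against 0, 2, 0 and 2 counts with DMSO. The lines were far apart in every library, and the NEL and DMSO libraries overlapped within each line on the CPM scale. 

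In U937, LMNA was slightly lower with NEL, with a log2 fold change of -0.17 ± 0.06 (adjusted p = 0.0219), and -0.18 among odd-numbered libraries and -0.15 among even-numbered ones. This call was fragile. It was lost without U937 NEL library 1 (adjusted p = 0.0544), without U937 NEL library 3 (0.0749) or without U937 DMSO library 2 (0.0625), and with upper quartile factors (0.109). It was also lost at an adjusted p under 0.01 and with limma-trend on RPKM at both pseudocounts. The call held in 15 of 22 alternatives, and the highest adjusted p among them all was 0.339. In KG1A, 13 counts with NEL and 4 with DMSO gave a ratio of 3.29 with a 95% counting interval of 1.02 to 13.8, which covers counting error only. The low count filter left the gene out of the KG1A test; with no such filter its log2 fold change was 1.53 ± 0.80 and did not pass (adjusted p = 0.163). U937 minus KG1A, the LMNA effects differed by -1.72 ± 0.76, which did not pass (adjusted p = 0.0709; 0.0323 with the replicate number as a block), and its fitted value depends on the handling of those few counts. It passed, at -2.23 and -1.77, without KG1A DMSO library 2 or U937 DMSO library 3.

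LMNB1 (ENSG00000113368, GRCh37 chr5:126112315-126172712, plus strand), encoding lamin B1, fell in both lines. It had 126, 146, 123 and 139 CPM in U937 with NEL, against 155, 189, 171 and 188 CPM with DMSO. It had 114, 125, 109 and 133 CPM in KG1A with NEL, against 139, 149, 131 and 144 CPM with DMSO. The U937 groups did not overlap, while in KG1A the highest NEL library lay above the lowest DMSO library. 

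The log2 fold change of LMNB1 was -0.38 ± 0.07 in U937 (adjusted p = 2.64e-04) and -0.23 ± 0.06 in KG1A (adjusted p = 0.00394). Even-numbered libraries stood above odd-numbered ones in all 4 groups, by 0.12 to 0.21 on the log2 scale. Within the odd-numbered and even-numbered libraries the change was -0.37 and -0.39 in U937, and -0.28 and -0.19 in KG1A. The effects of the lines differed by -0.16 ± 0.10, which did not pass (adjusted p = 0.214); with the replicate number as a block the difference was -0.15 and passed (adjusted p = 0.00231). The KG1A call was lost on the RPKM scale (adjusted p = 0.0667).

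LMNB2 (ENSG00000176619, GRCh37 chr19:2427636-2456994, minus strand), encoding lamin B2, separated the lines. It had 201, 195, 207 and 189 CPM in U937 with NEL, against 318, 309, 319 and 306 CPM with DMSO, with no overlap. In KG1A it had 264, 253, 263 and 244 CPM with NEL, against 246, 237, 251 and 233 CPM with DMSO, where the groups overlapped. The log2 fold change was -0.64 ± 0.04 in U937 (adjusted p = 8.11e-09; -0.62 among odd-numbered libraries and -0.66 among even-numbered ones). In KG1A it was 0.07 ± 0.04 and did not pass (adjusted p = 0.168). With the replicate number as a block the same 0.07 passed (adjusted p = 0.00738). It passed in 5 of 22 alternatives. The others were limma-trend on RPKM at both pseudocounts, summed libraries, and the odd or even number as a covariate. The effects differed by -0.72 ± 0.06 (adjusted p = 1.09e-09). The end of LMNB2 overlaps TIMM13 on the same strand, which averaged 30.0 ± 1.40 CPM in U937 with NEL and 85.9 ± 5.203 CPM with DMSO, and 55.9 ± 1.96 CPM in KG1A with NEL and 78.7 ± 4.34 CPM with DMSO (SD, n = 4 each); the part of shared reads in the LMNB2 result was not tested.

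Per exon length, the lamin transcripts summed to 106 ± 3.82 RPKM in U937 with NEL and 134 ± 5.13 RPKM with DMSO, and to 80.1 ± 1.53 RPKM in KG1A with NEL and 79.8 ± 0.815 RPKM with DMSO (SD, n = 4 each). LMNA made up 26.3% ± 1.17 of this sum in U937 with NEL and 21.9% ± 1.14 with DMSO. The share was higher with NEL in all 4 libraries without overlap, although the LMNA level itself was not. LMNB2 took 36.8% ± 2.63 with NEL and 42.5% ± 2.26 with DMSO in U937, and 58.7% ± 3.07 and 53.5% ± 2.19 in KG1A. LMNB1 took 36.9% ± 1.71 with NEL and 35.6% ± 2.24 with DMSO in U937, and 41.3% ± 3.09 and 46.5% ± 2.17 in KG1A. KG1A lamin transcripts were thus nearly all of the B type, LMNA taking 0.0541% with NEL and 0.0162% with DMSO. These shares are descriptions with no test. Their size depends on the annotated exon lengths, 6985 bases for LMNA, 3635 for LMNB1 and 5432 for LMNB2.

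**Figure D2:**
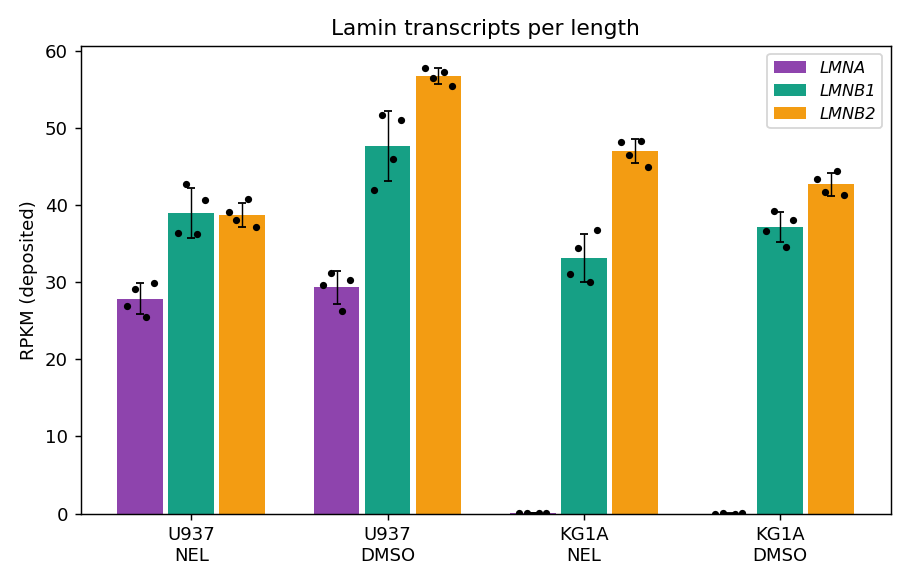
Deposited RPKM of the 3 lamin genes in each group, U937 with NEL and with DMSO to the left of KG1A with NEL and with DMSO; bars are means, error bars SD of 4 libraries and points single libraries. LMNA averaged 27.8 and 29.3 RPKM in U937 with NEL and DMSO and is near 0 in KG1A, and LMNB2 averaged 38.7 RPKM in U937 with NEL against 56.7 RPKM with DMSO.

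LBR (ENSG00000143815, GRCh37 chr1:225589204-225616627, minus strand) fell with NEL in both lines. It had 428, 425, 424 and 436 CPM in U937 with NEL, against 635, 641, 658 and 667 CPM with DMSO. It had 209, 209, 217 and 224 CPM in KG1A with NEL, against 274, 284, 276 and 287 CPM with DMSO. In each line all 4 NEL libraries lay below all 4 DMSO libraries. The log2 fold change was -0.58 ± 0.04 in U937 (adjusted p = 6.63e-09; -0.58 odd-numbered, -0.59 even-numbered) and -0.39 ± 0.04 in KG1A (adjusted p = 7.43e-07; -0.38 and -0.40). The fall was larger in U937, by -0.20 ± 0.05 (adjusted p = 0.00131). With DESeq2 size factors in place of TMM this difference was -0.11 and no longer passed (adjusted p = 0.0558).

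SUN1 (ENSG00000164828, GRCh37 chr7:855528-936072, plus strand) and SUN2 (ENSG00000100242, GRCh37 chr22:39130730-39190148, minus strand), which share the same place in the bridge across the nuclear envelope, moved in opposite directions in KG1A. SUN1 had 85.8, 91.4, 86.3 and 90.9 CPM in KG1A with NEL, against 70.2, 75.2, 71.5 and 73.3 CPM with DMSO. SUN2 had 278, 277, 273 and 282 CPM in KG1A with NEL, against 362, 348, 345 and 365 CPM with DMSO. Neither gene's groups overlapped. The log2 fold change in KG1A was 0.28 ± 0.04 for SUN1 (adjusted p = 8.00e-05; 0.27 among odd-numbered libraries and 0.29 among even-numbered ones). For SUN2 it was -0.36 ± 0.03 (adjusted p = 1.16e-06; -0.37 and -0.35).

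In U937, SUN1 had 51.6, 52.8, 50.02 and 51.1 CPM with NEL, against 60.3, 57.3, 53.6 and 54.0 CPM with DMSO. SUN2 had 152, 156, 149 and 157 CPM with NEL, against 197, 191, 184 and 187 CPM with DMSO. Neither gene's groups overlapped, with the SUN1 groups less than 1 CPM apart. SUN2 fell by 0.29 ± 0.04 on the log2 scale (adjusted p = 1.35e-05; -0.32 and -0.26 in the odd-numbered and even-numbered libraries). SUN1 had a log2 fold change of -0.11 ± 0.05 and did not pass (adjusted p = 0.0611; 0.0199 with the replicate number as a block). It passed without U937 DMSO library 3 (adjusted p = 0.0302) or without U937 DMSO library 4 (adjusted p = 0.0407).

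The NEL effect on SUN1 was lower in U937 than in KG1A by -0.40 ± 0.06 (adjusted p = 1.49e-05). That on SUN2 differed by 0.06 ± 0.05 and did not pass (adjusted p = 0.294). With DESeq2 size factors the SUN2 difference was 0.15 and passed (adjusted p = 0.0126). It also passed with upper quartile factors and with the DESeq2 test, so its call depends on the scaling of libraries. Of the summed RPKM of SUN1 and SUN2, SUN1 took 15.4% ± 0.220 in U937 with NEL and 13.9% ± 0.331 with DMSO, and 14.8% ± 0.376 in KG1A with NEL and 10.0% ± 0.418 with DMSO (SD, n = 4 each). The share was higher with NEL in every library of both lines. The exon length of SUN1 in the table is 11908 bases, counted over all annotated exons, which lowers its RPKM against genes with fewer listed exons. Other annotated genes overlap SUN1 and SUN2, among them GET4 on the strand of SUN1 and GTPBP1 opposite SUN2, so some reads may have been left uncounted or assigned to either gene.

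**Figure D3:**
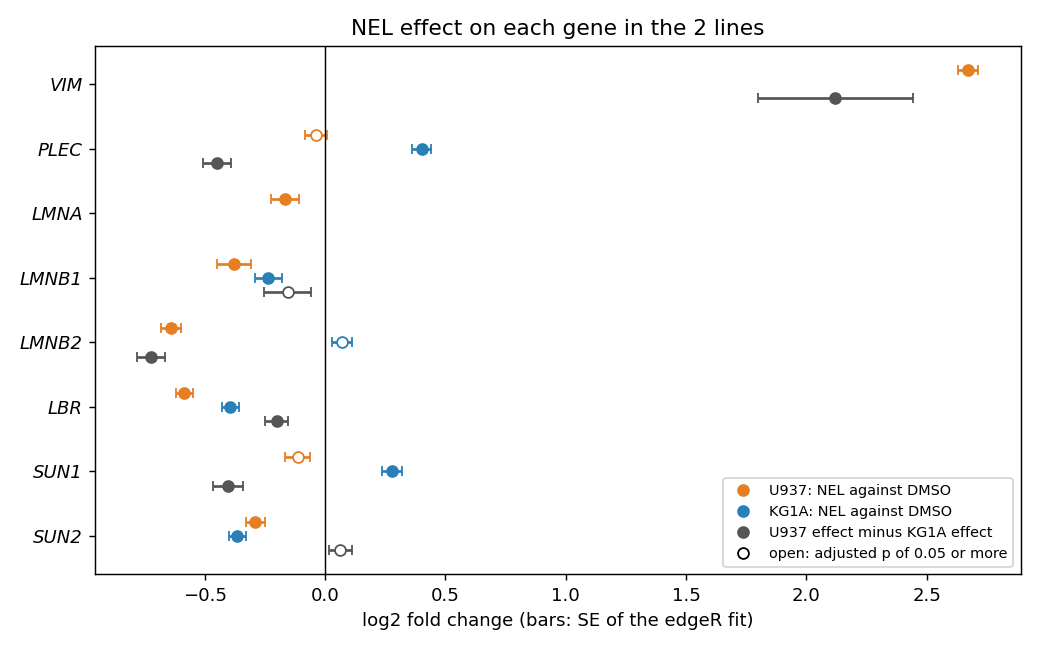
Log2 fold change of NEL against DMSO in U937 and in KG1A, and the U937 effect minus the KG1A effect, for each gene, with the SE of the edgeR fit; filled points had an adjusted p under 0.05. VIM reaches 2.67 in U937, while in KG1A PLEC (0.40) and SUN1 (0.28) are the filled points above 0; VIM and LMNA, not tested in KG1A, have no point there, and the LMNA difference is not drawn.

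Between the lines, all 8 genes differed without NEL, 6 higher and 2 lower in U937 with DMSO than in KG1A with DMSO. Of 15181 genes tested, 86.4% passed, 43.0% higher and 43.4% lower in U937. With NEL in both lines 8 of 8 again passed, 5 higher and 3 lower in U937, where 85.1% of 15602 genes passed, 42.3% higher and 42.9% lower. The largest gaps were those of LMNA and VIM. Both failed the low count filter within KG1A and entered these tests through their high U937 counts. Their calls as higher in U937 were thus fixed in advance and add no support of their own. Summed counts of LMNA, per library total, were 649 times higher in U937 than in KG1A with NEL (95% counting interval 379 to 1219) and 2247 times higher with DMSO (877 to 8250). For VIM the ratio was 561 with NEL (418 to 772) and 127 with DMSO (88.1 to 189). 

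The other genes differed by less. PLEC was higher in U937 than in KG1A by 1.45 ± 0.04 with NEL and 1.82 ± 0.05 with DMSO on the log2 scale, and LBR by 1.07 ± 0.04 and 1.19 ± 0.04. SUN2 was lower in U937, by -0.78 ± 0.04 with NEL and -0.92 ± 0.04 with DMSO, and SUN1 by -0.71 ± 0.04 and -0.39 ± 0.05. LMNB1 was slightly higher in U937, by 0.23 ± 0.07 with NEL, where the groups overlapped, and by 0.30 ± 0.06 with DMSO. LMNB2 changed sides: it was lower in U937 with NEL, by -0.29 ± 0.04 (adjusted p = 1.62e-05), and higher in U937 with DMSO, by 0.35 ± 0.04 (adjusted p = 4.22e-07). These comparisons share their libraries with those of NEL against DMSO and do not add independent evidence.

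The order of the 8 genes per exon length followed from these levels and from the exon lengths, which count all annotated exons. It therefore depends on the annotation. In U937 with NEL it ran VIM, LBR, LMNB1, LMNB2, LMNA, SUN2, PLEC and SUN1, where LMNB1 and LMNB2, and LMNA and SUN2, overlapped. In U937 with DMSO it ran LBR, LMNB2, LMNB1, LMNA, SUN2, PLEC, VIM and SUN1, where LMNA and SUN2, and PLEC and VIM, overlapped. In KG1A with NEL, LMNB2 led at 47.0 ± 1.60 RPKM, followed by SUN2, LBR, LMNB1, SUN1, PLEC, VIM and LMNA, and only SUN2 and LBR overlapped among neighbours. In KG1A with DMSO, SUN2 led at 52.4 ± 1.47 RPKM and overlapped LBR, ahead of LMNB2, LMNB1, SUN1, PLEC, VIM and LMNA (SD, n = 4 each). LBR averaged 86.5 ± 1.26 RPKM in U937 with NEL and 122 ± 2.43 RPKM with DMSO.

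Other genes of the nuclear envelope were read from lists drawn up by role. Over all genes tested, 69.3% passed in U937, 34.6% higher and 34.7% lower. The share was 47.2% in KG1A, 23.6% each way, and 47.4% for the difference between the lines. A list count near these shares is not read as a result of the list. The nuclear pore complex, the channel through the envelope, was the largest list. In U937, 3 of its 31 tested genes rose and 25 fell, with a median log2 fold change of -0.41, against -0.0044 over all genes tested. In KG1A, 11 of 31 rose and 5 fell, with a median of 0.04 against -0.0045 over all genes. The NEL effect differed between the lines in 25 of the 31, with 1 more positive and 24 more negative in U937. Examples in U937 were SEH1L at -1.01 ± 0.05 and NUP98 at -0.74 ± 0.04, against NUP58 at 0.41 ± 0.04 and NUP42 at 0.41 ± 0.07. In KG1A, NUP43 rose by 0.45 ± 0.04 and NUP107 by 0.41 ± 0.04, while SEH1L fell by 0.32 ± 0.05 and NUP153 by 0.23 ± 0.04. NUP58 and NUP42 rose in KG1A too, by 0.24 ± 0.04 and 0.35 ± 0.06, and NUP98 stood at -0.01 ± 0.04 there (adjusted p = 0.803). In U937, NUP107 fell by 0.36 ± 0.06 and NUP153 by 0.59 ± 0.04, and NUP43 stood at 0.10 ± 0.05 (adjusted p = 0.0611).

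A list of 17 genes covered the inner nuclear membrane and LEM domain proteins, which bind chromatin at the lamina. It also held other genes, such as CBX1, CBX3, CBX5, LPIN1, CTDNEP1 and CNEP1R1. Of the 17, 5 rose and 10 fell in U937 (median -0.23), and 6 rose and 4 fell in KG1A (median 0.04). CBX5, LPIN1 and CNEP1R1 were among the 5 that rose in U937. Over all genes tested, 69.3% passed in U937 and 47.2% in KG1A. EMD, encoding emerin, averaged 72.7 ± 3.97 CPM in U937 with NEL and 91.5 ± 9.67 CPM with DMSO, and 39.3 ± 3.75 CPM in KG1A with NEL and 30.5 ± 3.40 CPM with DMSO. It fell in U937 (log2 -0.31, adjusted p = 9.49e-04) and rose in KG1A (log2 0.35, adjusted p = 0.00367), and the effects differed by -0.68 ± 0.12 (adjusted p = 5.34e-05). TMPO, encoding the lamina-associated LAP2 proteins, fell in both lines, by -0.26 ± 0.04 in U937 and -0.19 ± 0.03 in KG1A. BANF1, the chromatin-binding partner of LEM proteins, varied widely, with 30.5 ± 8.71 CPM in U937 with NEL and 44.8 ± 14.8 CPM with DMSO, and 80.3 ± 29.1 CPM in KG1A with NEL and 87.4 ± 32.9 CPM with DMSO. Its log2 fold change of -0.53 ± 0.22 in U937 passed narrowly (adjusted p = 0.0421), and -0.13 ± 0.25 in KG1A did not (adjusted p = 0.695).

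CBX5, encoding the heterochromatin protein 1 alpha that binds LBR, rose in both lines, by 0.68 ± 0.04 in U937 and 0.28 ± 0.04 in KG1A. ANKLE1, a LEM domain endonuclease, fell by 0.95 ± 0.06 in U937 and rose by 1.48 ± 0.21 in KG1A. LEMD2 rose by 0.43 ± 0.07 and TMEM201, an inner membrane protein, fell by 0.69 ± 0.07 in U937, while in KG1A LEMD2 fell by 0.18 ± 0.06 and TMEM201 rose by 0.42 ± 0.09. CTDNEP1, a phosphatase of the envelope, fell by 0.23 ± 0.10 in U937 and 0.31 ± 0.09 in KG1A.

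For the nesprins, other SUN genes and torsins, 4 of 7 tested genes rose and 2 fell in U937, and 3 of 9 rose and 3 fell in KG1A. Beside these stand 69.3% of all genes tested in U937 and 47.2% in KG1A that passed. SYNE3, encoding nesprin-3, the outer membrane protein that binds plectin, averaged 21.3 ± 1.36 CPM in U937 with NEL and 13.3 ± 0.957 CPM with DMSO, and 8.49 ± 1.01 CPM in KG1A with NEL and 3.47 ± 0.504 CPM with DMSO. It rose in both lines, by 0.69 ± 0.08 and 1.28 ± 0.14 on the log2 scale (adjusted p = 3.36e-06 in U937 and 4.13e-06 in KG1A). SYNE1, encoding nesprin-1, went opposite ways. It averaged 5.99 ± 1.54 CPM in U937 with NEL and 4.10 ± 0.839 CPM with DMSO (log2 0.57, adjusted p = 0.0210), and 63.3 ± 4.59 CPM in KG1A with NEL and 93.9 ± 4.75 CPM with DMSO (log2 -0.58, adjusted p = 1.12e-06). The effects on SYNE1 differed by 1.13 ± 0.19 (adjusted p = 3.48e-05). 

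SYNE2, encoding nesprin-2, summed over 4 libraries to 0 counts in U937 with NEL and 2 with DMSO, and to 75 counts in KG1A with NEL and 38 with DMSO, where it rose by 0.92 ± 0.23 (adjusted p = 0.00434). IRAG2, which also carries a domain that SUN proteins bind, rose by 1.60 ± 0.10 in U937 and fell by 0.32 ± 0.04 in KG1A. TOR1AIP1 and TOR1AIP2, partners of the torsin ATPases, fell by 0.16 ± 0.04 and 0.31 ± 0.07 in U937; in KG1A TOR1AIP1 fell by 0.12 ± 0.04, and TOR1AIP2 stood at 0.09 ± 0.07 and did not pass (adjusted p = 0.290).

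Of 6 genes that process or bind prelamin A, 1 rose and 3 fell in U937, while in KG1A 3 rose and the other 3 did not pass. Both counts lie near the shares of all genes tested that passed, 69.3% in U937 and 47.2% in KG1A. With the replicate number as a block, 5 passed in KG1A. ZMPSTE24, the protease that matures prelamin A, averaged 73.0 ± 3.18 CPM in U937 with NEL and 134 ± 0.742 CPM with DMSO, and 89.5 ± 3.26 CPM in KG1A with NEL and 82.6 ± 3.34 CPM with DMSO. It fell by 0.86 ± 0.04 in U937 (adjusted p = 5.79e-10) and stood at 0.10 ± 0.04 on the log2 scale in KG1A (adjusted p = 0.0661). ICMT, a methyltransferase acting on the same tail, rose by 0.64 ± 0.04 in KG1A and fell by 0.14 ± 0.04 in U937. NARF, a prelamin A binding protein, rose by 0.91 ± 0.06 in U937 and 0.24 ± 0.04 in KG1A.

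Few other cytoplasmic intermediate filament genes were detected: 2 of 15 could be tested in each line. KRT10, a keratin gene, fell in both lines, with 7.28 ± 0.911 CPM in U937 with NEL and 13.3 ± 1.59 CPM with DMSO (log2 -0.85, adjusted p = 1.56e-05), and 9.11 ± 0.241 CPM in KG1A with NEL and 11.98 ± 0.841 CPM with DMSO (log2 -0.40, adjusted p = 0.00198). The other gene tested was PRPH in U937 (log2 0.31, adjusted p = 0.518) and NEFM in KG1A (log2 0.16, adjusted p = 0.567). The list around plectin held plakins such as MACF1, DST and EVPL, and also ITGB4 and DYSF, which are not plakins. In U937, 3 of 4 tested genes rose, namely MACF1, ITGB4 and DYSF, and DST did not pass (log2 -0.02, adjusted p = 0.860). In KG1A, 1 of 5 rose and 4 fell. EVPL, at 87.3 and 98.8 CPM in KG1A with NEL and DMSO, fell there by 0.19 ± 0.06 and was under 1 CPM in U937. Of all genes tested, 69.3% passed in U937 and 47.2% in KG1A. Without KG1A DMSO library 2, or without KG1A NEL library 3, the KG1A count was 3 instead of 5. MACF1, a large linker of actin and microtubules, averaged 353 ± 20.8 CPM in U937 with NEL and 220.4 ± 9.65 CPM with DMSO, and 659 ± 30.2 CPM in KG1A with NEL and 797 ± 38.0 CPM with DMSO. It rose by 0.70 ± 0.05 in U937 and fell by 0.28 ± 0.04 in KG1A, a difference of 0.97 ± 0.07 (adjusted p = 1.07e-10). ITGB4, an integrin chain that plectin binds, rose by 1.35 ± 0.19 in U937 and 1.14 ± 0.38 in KG1A at low levels, and DYSF, dysferlin, rose by 0.16 ± 0.04 in U937 and fell by 0.15 ± 0.03 in KG1A.

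Among 13 genes of nuclear envelope breakdown and assembly around mitosis, 1 rose and 8 fell in U937 (median -0.21), and 3 rose and 5 fell in KG1A (median -0.13). The share of all genes tested that passed was 69.3% in U937 and 47.2% in KG1A. CDK1, the kinase that phosphorylates lamins at mitosis, rose by 0.33 ± 0.04 in U937 and 0.33 ± 0.04 in KG1A. CCNB1, its cyclin, fell by 0.96 ± 0.05 in U937, as did CHMP7, the membrane-remodelling factor of the envelope, by 0.39 ± 0.04. In KG1A, VRK1, a kinase of BANF1, rose by 0.49 ± 0.05, and CHMP2A and PPP2R1A fell by 0.75 ± 0.16 and 0.28 ± 0.04. In U937, VRK1 fell by 0.34 ± 0.05, CHMP2A by 0.53 ± 0.16 and PPP2R1A by 0.32 ± 0.04. CCNB1 also fell in KG1A, by 0.15 ± 0.05, where CHMP7 stood at -0.13 ± 0.05 and did not pass (adjusted p = 0.0623). All these lists were chosen with earlier results of these data known, and their counts stand beside the shares of all genes given above.

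**Figure D4:**
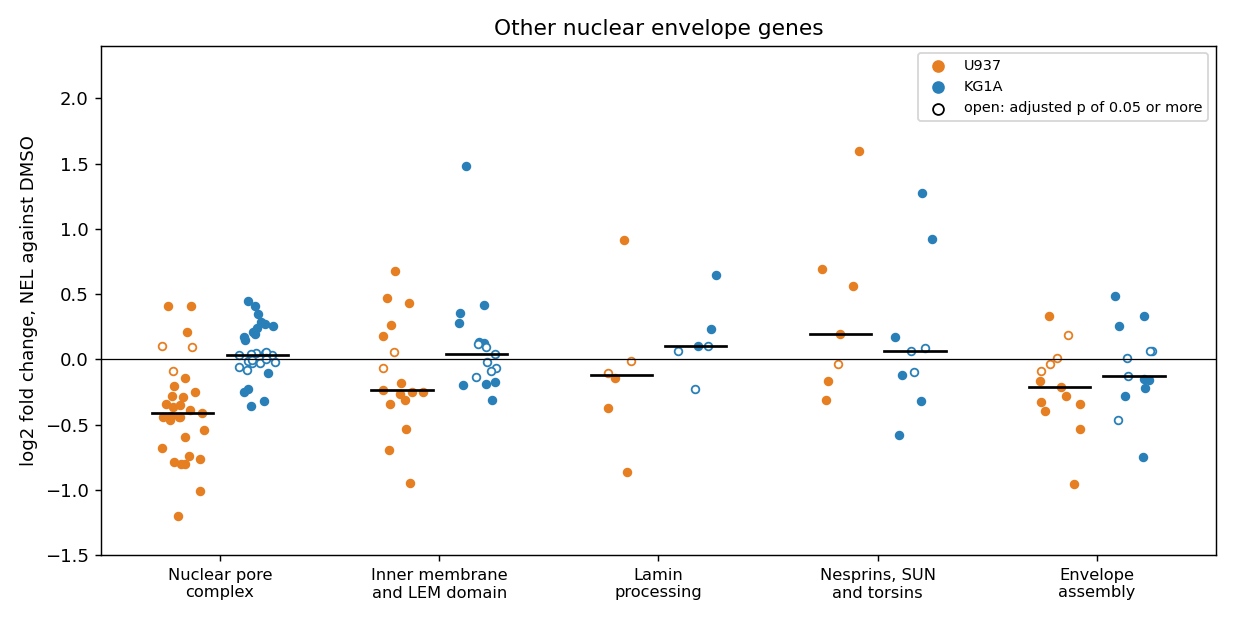
Log2 fold change of NEL against DMSO for each tested gene of 5 lists, U937 to the left of KG1A in each list; black lines are medians and open points had an adjusted p of 0.05 or more. The nuclear pore complex has a median of -0.41 in U937 and 0.04 in KG1A.

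Genes with the pattern most like each of the 8 over the 16 libraries were named by the smallest root mean square difference of centred log2(CPM + 0.5), among 11107 genes. For VIM these were HLA-DRA, FCER2 and TREML2, at 0.46, 0.48 and 0.53, beside a root mean square of 3.80 for the centred VIM values themselves. HLA-DRA averaged 152 CPM in U937 with NEL and 49.9 CPM with DMSO and was under 0.1 CPM in KG1A, so it moved less with NEL than VIM did. For LMNA they were GRB10, ASS1 and BEX1, at 0.25, 0.27 and 0.27, all close to absent from KG1A. The closest to PLEC was APMAP (0.09), to LMNB1 COPB2 (0.05), to LMNB2 PSMA5 (0.05), to LBR CDKN1B (0.07), to SUN1 PM20D2 (0.07) and to SUN2 DCAF7 (0.06). These are descriptions over libraries that share line and treatment, with no test.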

How the data were processed

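RNA of 16 libraries was analysed: U937 and KG1A with NEL or DMSO, 4 libraries each. Per the labels' protocols, a Kapa kit gave stranded libraries of polyadenylated RNA. Tools named in the submitters' processing notes are bcl2fastq 2.18.0.12, TopHat2 and HTSeq 0.11.2, with build hg19 (GRCh37). Which annotation was counted, and whether strand was used, is not given in the sources used here. Per gene, the authors deposited raw read counts. RPKM as deposited is each count divided by exon length and library total (relative deviation at most 1.86e-07), so it adds no independent evidence; it served for levels per length and as alternatives. Of 34618 gene IDs, 32562 matched a symbol, and 0 per-sample columns were left unmatched.

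Counts were tested with edgeR 4.0.16 in R 4.3.3 (quasi-likelihood fit and test, TMM factors, low count filter with minimum count 10 and minimum total 15). P-values were adjusted by Benjamini-Hochberg over all genes tested, and genes were called at an adjusted p under 0.05. The steps were tested on simulated data. The 4 comparisons between groups used their 8 libraries each, and the difference of NEL effects was the interaction term over all 16. Each SE was taken as the absolute log2 change over the square root of F. CPM values use TMM factors over all 16 libraries and differ slightly from those of each fit. Intervals (95%) cover no error but that of counting.

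The 8 genes and the lists were chosen with earlier results of these data known. The rule for other named genes took, per list and line, at most 2 called genes each way of smallest p with at least 1 CPM, plus EMD, TMPO, SYNE1, SYNE2, SYNE3, ZMPSTE24 and BANF1. PRPH, NEFM, DST, EVPL and, in U937, DYSF were named after their values were seen. NEFL, EPPK1, POM121C and TRAC are not analysed here, and older names were matched to IRAG2, NUP58 and NUP42. Marker lists covered immature, promonocytic, T lymphoid, erythroid, mesenchymal and epithelial genes; the 4 erythroid markers summed to at most 0.587 CPM in any library, and the 3 T lymphoid markers in the table to at most 0.578 CPM in U937 with NEL, 0.880 CPM in U937 with DMSO, 154 CPM in KG1A with NEL and 161 CPM in KG1A with DMSO. A further marker list is not reported here.

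Libraries carry a number from 1 to 4 in the labels. Deviations from the group means correlated between same-numbered libraries at 0.378 to 0.441 (NEL with DMSO) in U937, 0.36 to 0.439 in KG1A, and 0.282 to 0.356 between the lines. All were over 0.1, so fits with the number as a block were run as alternatives. The main fits used no block. The other library of the same odd or even set correlated about as well (0.382 to 0.472 in U937, 0.346 to 0.391 in KG1A). Between NEL and DMSO, libraries correlated best with their own number in 2 of 4 cases in U937 and 3 of 4 in KG1A. Pairing by number is therefore not settled. Blocked values stand beside those results of the 8 genes whose call they change, and beside list counts that they move by over 1.5 times. Other alternatives were DESeq2 1.42.0 size factors or test, upper quartile factors, other filters, limma-voom and limma-trend (limma 3.58.1) on log2(RPKM + 0.5) or log2(RPKM + 0.1), the odd-numbered or even-numbered libraries, summed libraries, an adjusted p under 0.01, and each library left out. Figures were drawn with matplotlib 3.10.9.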

Additional observations from a re-analysis of the deposited data

Results flagged for a closer look

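The NEL effect differed between U937 and KG1A, by the test of the difference over all 16 libraries, for 5 of the 8 genes. Of these, VIM failed the low count filter within KG1A and entered the test through its U937 counts, so its call adds no support. The difference, U937 minus KG1A on the log2 scale, was 2.12 for VIM, resting on 9 to 13 counts per KG1A library with NEL and 3 to 12 with DMSO. It was -0.45 for PLEC, -0.72 for LMNB2, -0.40 for SUN1 and -0.20 for LBR; the LBR value did not pass with DESeq2 size factors. No library stood apart from its group by Dixon's test in any of the 32 sets of 4 values of the 8 genes, where chance alone would give about 1 in 20. With 4 values in a set, this test can find only a library that lies far from the others. The outcome therefore does not show that the libraries of a group were alike.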

How the results depend on the processing

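The alternatives kept the direction of every fold change of the 8 genes named as called, with no sign change among them. PLEC in U937, not called, was -0.04 in the edgeR fit, 0.022 with upper quartile factors, and 0.055 and 0.056 with limma-trend at RPKM pseudocounts 0.5 and 0.1. Among the 8 genes, the replicate block changed the calls of LMNB2 in KG1A, SUN1 in U937 and the LMNA and LMNB1 differences, and no other call. With it, called genes over all genes numbered 10871 against 9978 without it in U937, 8346 against 6729 in KG1A and 8803 against 7643 for the difference. Of the list counts, lamin processing in KG1A moved by over 1.5 times, to 5; with the block U937 had 31 called genes in the nuclear pore list, 16 in the inner membrane list and 5 in lamin processing, KG1A had 12 in the inner membrane list, 7 in nesprins and torsins and 9 in envelope assembly, and the difference had 28, 13 and 6 in the nuclear pore, inner membrane and envelope assembly lists. The share of higher calls in KG1A was 50.04%, but 64.5% with limma-trend on RPKM, and that of more positive differences between lines 44.5%, but 54.2% with DESeq2 size factors and 54.6% with the DESeq2 test. Leaving out 1 library gave 9619 to 9857 calls in U937, 6205 to 6410 in KG1A, 7378 to 7468 for the difference, and 13273 to 13352 (NEL) and 13037 to 13200 (DMSO) between lines, with 5 to 7, 5 to 5, 5 to 6, 8 and 8 of the 8 genes. Counts of called list genes moved by over 1.5 times as follows, and the cause was not tested. With limma-trend on RPKM, at pseudocounts 0.5 and 0.1, U937 had 2 and 2 in lamin processing and 3 and 3 in nesprins and torsins, and KG1A had 5 and 5 in envelope assembly and 1 and 2 in plakins. At an adjusted p under 0.01, KG1A had 6 in the inner membrane list, 3 in plakins and 5 in envelope assembly, and the line difference of intermediate filaments 0. Intermediate filaments had 3 in U937 and 3 in KG1A with no low count filter, 2 in KG1A with summed libraries, and for the difference 0 with the DESeq2 test, 0 among odd-numbered libraries and 0 among even-numbered ones. Lamin processing had 3 for the difference with DESeq2 size factors, upper quartile factors and the DESeq2 test. Plakins in KG1A had 3 to 5 with 1 library left out, 3 without KG1A DMSO library 2 or KG1A NEL library 3. Depth limits VIM and LMNA in KG1A, where a library held at most 13 counts.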
